A study of Mus musculus with 6 samples.

Results

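Butyrate is known to inhibit zinc-dependent histone deacetylases (HDACs), mainly those of class I, and the transcripts of the 10 class I and class II genes were followed in heart ventricle RNA from mice fed Western diet (WD). The 10 genes were taken by name from the 54232 genes of the count files, with earlier results of these data known. They were *Hdac1*, *Hdac2*, *Hdac3* and *Hdac8* of class I, *Hdac4*, *Hdac5*, *Hdac7* and *Hdac9* of class IIa, and *Hdac6* and *Hdac10* of class IIb. All 10 passed the filter on low counts. The mice were wild-type C57BL/6J. All had been fed WD for 15 weeks and were then needle-fed for 3 weeks, 2 days on and 2 days off. One group of 3 received Tributyrin, a triglyceride of butyrate, at 5 g/kg body weight (WD + Tributyrin), and the other group of 3 received vehicle, which the labels call PBS (WD + Vehicle). No age or sex was stated for the single mice, and mice on normal chow were not analysed here. Whole tissue was sequenced, so fewer cells of a type and less RNA per cell cannot be told apart. Each library held between 20369746 and 32734485 counts on genes, and normalized counts are these counts divided by a size factor for each library.

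HDACs remove acetyl groups from lysines of histones and other proteins, and they are known mostly as repressors of transcription. Class I enzymes work in the nucleus. HDAC1 and HDAC2 form the core of the SIN3, NuRD and CoREST complexes, and HDAC3 works with the corepressors NCoR and SMRT. Class IIa enzymes have little deacetylase activity of their own. They bind MEF2 transcription factors in muscle and leave the nucleus when kinases phosphorylate them and 14-3-3 proteins bind, a switch known from cardiac hypertrophy. In class IIb, HDAC6 deacetylates tubulin in the cytoplasm and HDAC10 acts on polyamines. HDAC6 and HDAC10 are known to be little affected by butyrate. Inhibition of an enzyme need not change its transcript, and the counts measure transcripts alone.

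At the active site, the coding sequence sets class IIa apart from class I and class IIb. Shown here are 27 bases of each coding sequence around the codon of the catalytic tyrosine, which class IIa genes replace with a histidine codon, from GENCODE M21 (GRCm38), written along the transcript with that codon in capitals.
Hdac1: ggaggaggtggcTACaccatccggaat
Hdac2: ggtggaggaggcTACacaatccggaat
Hdac8: ggaggaggaggcTATaaccttgccaac
Hdac4: cttgagggaggcCATgacctgacagcc
Hdac5: ctggagggaggcCATgacttgaccgcc
Hdac7: ttagagggtggaCATgacctcacggcc
Hdac9: ctggaaggaggaCATgatctgacagct
Hdac6 first domain: ctggagggtggcTATaacctccgtgcc
Hdac6 second domain: ctagagggtggaTACaatttggcatct
Hdac10: ttggagggtggcTACcacttggagtcc
The codon is TAC or TAT, both for tyrosine, in *Hdac1* (residue 303), *Hdac2* (residue 304), *Hdac8* (residue 306) and *Hdac10* (residue 305), and in both catalytic domains of *Hdac6* (residues 385 and 781). It is CAT, for histidine, in *Hdac4* (residue 968), *Hdac5* (residue 1017), *Hdac7* (residue 845) and *Hdac9* (residue 957). The class IIa stretches lie in a single exon, at chr1:91945948-91945974 for *Hdac4*, chr11:102196587-102196613 for *Hdac5*, chr15:97796146-97796172 for *Hdac7* and chr12:34107266-34107292 for *Hdac9*, all on the minus strand. The stretches of *Hdac1* (chr4:129518889-129518915, minus strand) and *Hdac2* (chr10:36997045-36997071, plus strand) lie in a single exon too, while those of *Hdac8*, *Hdac6* and *Hdac10* each cross an intron. In the longest annotated coding sequences the proteins ran from 377 residues for *Hdac8* to 1149 for *Hdac6*.

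*Hdac5* was the most abundant of the 10 transcripts per unit of length and *Hdac8* the least. In TPM, a library's counts per length of gene scaled to a fixed total, computed here with the merged exonic length, *Hdac5* stood at 32.9 ± 2.77 (SD, n = 6), above 84.5% of the genes tested. *Hdac3* followed at 25.9 ± 1.39 and *Hdac2* at 24.6 ± 2.14. *Hdac5* lay above *Hdac3* in 6 of 6 mice, while *Hdac3* lay above *Hdac2* in 4 of 6, so these neighbours do not differ beyond their spread. With the length of the longest transcript instead, *Hdac2* lay above *Hdac3* in every mouse. *Hdac7* stood at 12.7 ± 2.23 TPM and *Hdac1* at 9.25 ± 0.907 TPM. The range of *Hdac7* over the 6 mice did not reach that of *Hdac2*, and *Hdac1* lay below *Hdac7* in 6 of 6 mice (4 of 6 with the longest transcript). A group of 4 transcripts came next, *Hdac6* at 6.01 ± 1.16, *Hdac10* at 5.56 ± 0.418, *Hdac4* at 5.43 ± 0.671 and *Hdac9* at 4.56 ± 1.09 TPM. Their ranges overlapped and their order changed with the length used, *Hdac4* and *Hdac9* then lying above *Hdac6* and *Hdac10*. *Hdac8* was last under both lengths, at 1.39 ± 0.174 TPM, and *Hdac9* was 3.27 times as high. *Hdac11*, the only class IV gene, stood at 12.8 ± 1.45 TPM.

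**Figure D1:**
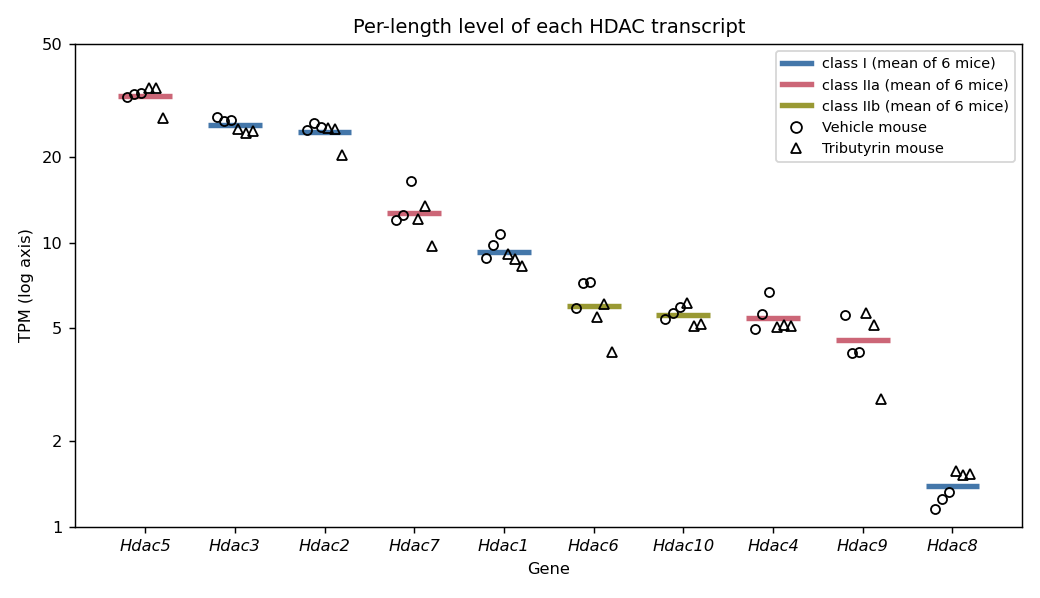
Level of each HDAC transcript in TPM (vertical log axis), with 1 point for each mouse (circles vehicle, triangles Tributyrin) and a bar at the mean of the 6 mice, coloured by class. *Hdac5*, *Hdac3* and *Hdac2* lie above 20 TPM in all mice, and *Hdac8* lies below 2 TPM in all mice.

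Summed by class, class I and class IIa held similar parts of the HDAC message. Class I made up 48.5%, 48.4% and 46.6% of the summed TPM of the 10 genes in the vehicle mice, and 46.8%, 46.1% and 50.1% in the Tributyrin mice. Class IIa made up 42.8%, 41.9% and 43.9% with vehicle and 44.3%, 45.3% and 41.3% with Tributyrin. For both classes the shares overlapped between the groups. The class I sum itself did not, at 62.5, 64.3 and 64.6 TPM with vehicle and 61.0, 59.7 and 54.8 TPM with Tributyrin. In normalized counts the class I sums overlapped, at 2856 to 3002 with vehicle and 2783 to 3021 with Tributyrin. The TPM sums of class IIa and of class IIb overlapped. Class IIb made up 8.75%, 9.69% and 9.51% with vehicle and 8.90%, 8.61% and 8.52% with Tributyrin, again with overlap. *Hdac3* and *Hdac2* carried most of class I, and *Hdac5* carried more of class IIa than *Hdac4*, *Hdac7* and *Hdac9* together. With the longest transcript as the length, class IIa (48.2%) was above class I (44.5%).

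To ask whether Tributyrin changed the transcripts of these enzymes, WD + Tributyrin mice were compared with WD + Vehicle mice. None of the 10 HDAC transcripts passed an FDR of 10% or 5%, as was the case for all 14133 genes tested (0% called at either threshold). The adjusted p was 0.999 for each of the 10 by the quasi-likelihood test of edgeR, adjusted after Benjamini and Hochberg over all genes tested. At an unadjusted p under 0.05 there was 1 HDAC gene of 10, *Hdac8*, against 4.25% of all genes tested (1.97% for higher values with Tributyrin), and it was also the 1 gene whose groups did not overlap, against 8.91% (4.26% for higher values). Of the 10 genes, 4 were higher and 6 lower with Tributyrin, and the median log2 fold change (Tributyrin over vehicle) was -0.0069, beside -0.0013 over all genes tested, of which 49.6% were higher. The sizes ran from -0.25 for *Hdac6* to 0.44 for *Hdac8*. DESeq2 called 11 of all genes at 10%, but 0 of the 10, with 0 of the 10 under an unadjusted p of 0.05. The paper, which used DESeq2, reports transcripts altered by Tributyrin at an FDR of 10%.

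The intervals show how large a change these libraries leave room for. The 95% interval of the fold change was 0.888 to 1.12 for *Hdac2*, 0.874 to 1.12 for *Hdac3*, and 0.942 to 1.20 for *Hdac5*, the most abundant members. It was 0.833 to 1.12 for *Hdac4*, and on the log2 scale that of *Hdac1* ran from -0.26 to 0.17. *Hdac9* had the widest interval of the 10 on the log2 scale, a fold of 0.765 to 1.47.

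**Figure D2:**
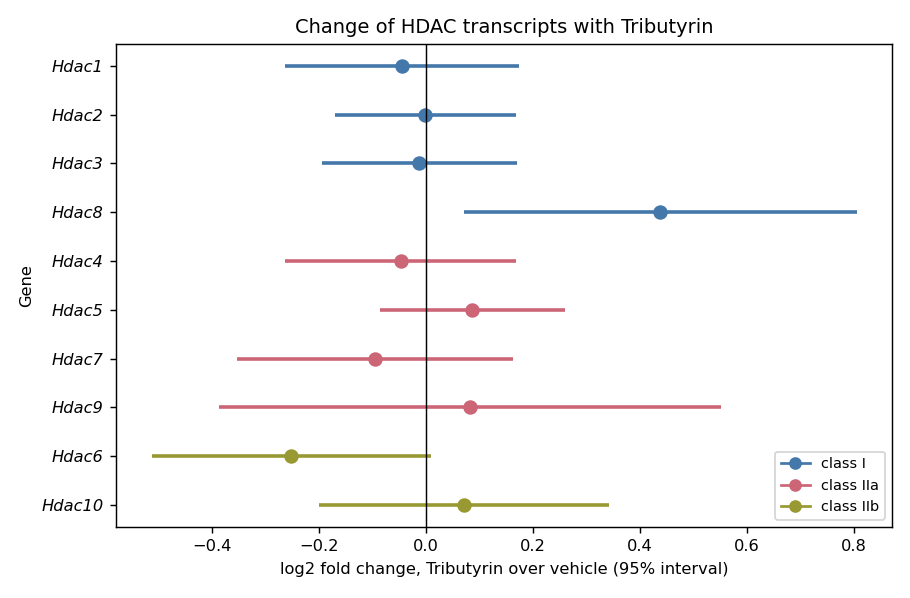
Log2 fold change of each HDAC transcript, Tributyrin over vehicle, from edgeR (points) with its 95% interval (lines, n = 3 mice per group), coloured by class. The interval of *Hdac8*, from 0.07 to 0.81, is the only one that does not include 0, and that of *Hdac6* reaches from -0.51 to 0.01.

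In class I, the abundant members had overlapping groups in normalized counts. *Hdac1* (ENSMUSG00000028800, chromosome 4, 129516104 to 129542713), which encodes a catalytic core subunit of the SIN3, NuRD and CoREST complexes, had 351.3, 364.4 and 396.3 normalized counts with vehicle and 374.0, 337.2 and 364.8 with Tributyrin. The log2 fold change was -0.05 (standard error 0.098). *Hdac2* (ENSMUSG00000019777, chromosome 10, 36974544 to 37001889), its close paralog in the same complexes, had 1288, 1269 and 1222 normalized counts with vehicle and 1347, 1256 and 1170 with Tributyrin. Its group means were 1260 ± 33.7 and 1258 ± 88.2 (SD, n = 3), so that the Tributyrin mice lay on both sides of the vehicle mice. *Hdac3* (ENSMUSG00000024454, chromosome 18, 37935844 to 37955016), the deacetylase of the NCoR and SMRT complexes, had 1298, 1165 and 1169 normalized counts with vehicle and 1210, 1107 and 1282 with Tributyrin. The groups overlapped and the log2 fold change was -0.01 (standard error 0.082). In TPM, whose total includes the mitochondrial transcripts, its vehicle mice (26.7 to 27.7) lay above its Tributyrin mice (24.4 to 25.1), so the separation depends on the scale. A processed pseudogene copy of *Hdac1*, *Gm10093*, had at most 6 counts in any library, so few reads were assigned to it.

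*Hdac8* was the member whose groups stood apart. The gene (ENSMUSG00000067567, chromosome X, 102284639 to 102505359) encodes a class I enzyme that works outside the large corepressor complexes and deacetylates the cohesin subunit SMC3. It had 64.4, 65.1 and 68.3 normalized counts in the vehicle mice and 90.7, 82.2 and 95.2 in the Tributyrin mice. Every Tributyrin mouse lay above every vehicle mouse (p = 0.1 by a two-sided exact permutation test, which cannot go lower with 3 mice in each group). The means were 66.0 ± 2.07 and 89.4 ± 6.59 (SD, n = 3), and the log2 fold change was 0.44 (standard error 0.166), a fold of 1.35 with a 95% interval of 1.05 to 1.75. The unadjusted p was 0.0241 in edgeR's model across genes, at rank 271 of the genes tested, and the adjusted p was 0.999, so the difference failed the correction. These values rest on few reads, 62, 84 and 55 counts with vehicle and 97, 90 and 83 with Tributyrin. At this depth the counting of reads by itself brings a relative SD of up to 13.5%, and the mice within a group differed by 6.29%, less than that. The unadjusted p was 0.072 by DESeq2 and 0.0509 with library size as the only scaling.

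**Figure D3:**
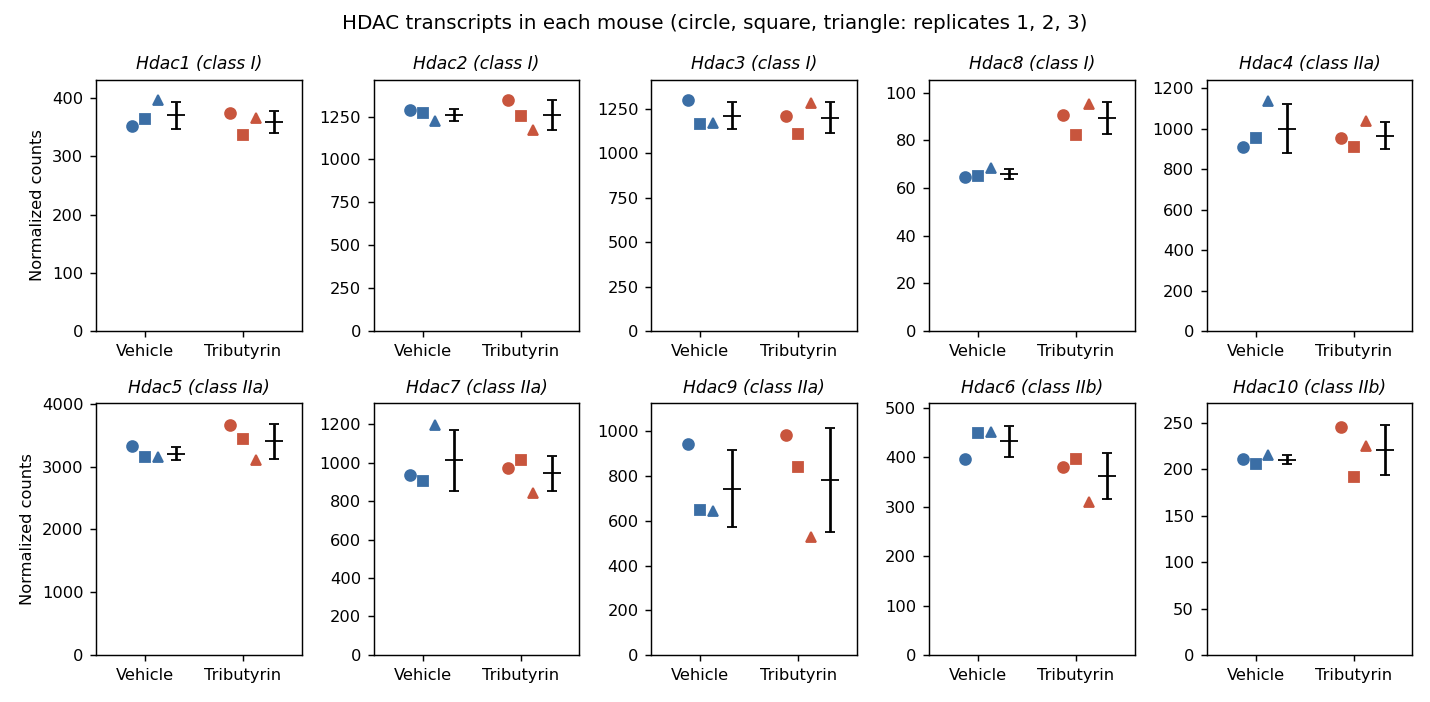
Normalized counts of the 10 HDAC genes (vertical axes, each from 0) in the 3 vehicle (blue) and 3 Tributyrin (red) mice, with the mean and SD of each group in black. *Hdac8* is the panel without overlap, from 64.4 to 68.3 with vehicle and from 82.2 to 95.2 with Tributyrin, and *Hdac9* spreads widely within both groups.

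In class IIa, the 4 genes went both ways and none stood apart. *Hdac4* (ENSMUSG00000026313, chromosome 1, 91928779 to 92195699), a repressor of MEF2 factors that shuttles in and out of the nucleus, had 908.4, 951.4 and 1136 normalized counts with vehicle and 951.0, 907.3 and 1036 with Tributyrin (log2 fold change -0.05, standard error 0.097). *Hdac5* (ENSMUSG00000008855, chromosome 11, 102194432 to 102230166), which acts on MEF2 in the same way and whose loss is known to enhance hypertrophy, had 3319, 3147 and 3153 normalized counts with vehicle and 3656, 3442 and 3103 with Tributyrin. Of its Tributyrin mice, 2 lay above and 1 lay below all vehicle mice, and the log2 fold change was 0.09 (standard error 0.078). *Hdac7* (ENSMUSG00000022475, chromosome 15, 97792664 to 97844502), known for its part in endothelial cells, had 937.5, 906.5 and 1194 normalized counts with vehicle and 973.4, 1015 and 844.3 with Tributyrin. Its log2 fold change was -0.10 (standard error 0.116), and at 0.04 it lay on the other side of 0 without vehicle replicate 3. *Slc48a1* on the opposite strand shares 29 exonic bases with *Hdac7*, of 6755, and had 1247 to 2159 counts. *Gm26720*, also on the opposite strand, shares 3536 of the 15813 exonic bases of *Hdac4* and had 0 counts in every library. The strand option of the counting is not stated, so these counts do not show whether reads in shared bases were lost.

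*Hdac9* (ENSMUSG00000004698, chromosome 12, 34047580 to 34917095), a class IIa gene known for a splice form without the catalytic domain that still represses MEF2, differed most between mice of the same group. It had 941.7, 646.7 and 644.8 normalized counts with vehicle and 983.7, 841.5 and 528.8 with Tributyrin. In each group the mouse numbered 1 was the highest, although the numbers are not known to pair the mice. The within-group coefficient of variation was 26.7%, where the 500 tested genes nearest to it in level had a median of 7.15% and 99.2% of them varied less. Counting error accounts for at most 4.66%, since the gene had 461 to 1052 counts. The log2 fold change was 0.08 (standard error 0.211), and it ran from -0.11 without tributyrin replicate 1 to 0.30 without tributyrin replicate 3, so single mice decide its direction. *Hdac7* and *Hdac4* also varied more than genes of like level, at 13.1% against 7.04% and 9.88% against 7.03%, while *Hdac5* did not, at 6.32% against 6.54%. In class I, *Hdac1*, *Hdac2* and *Hdac8* varied less than the median gene of like level, and *Hdac3* was close to it, at 6.81% against 6.66%. The counts join all splice forms of a gene, so forms of *Hdac9* with and without the catalytic domain were not analysed here.

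**Figure D4:**
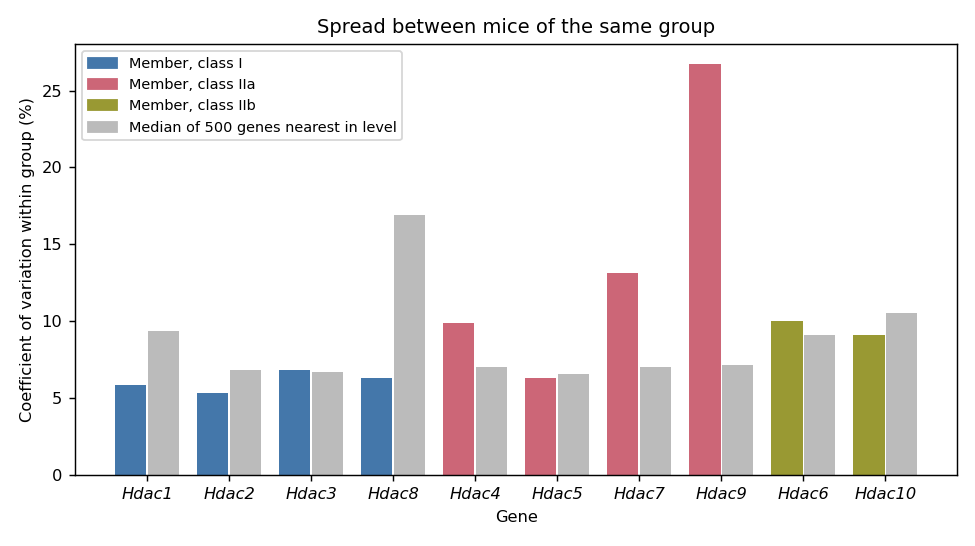
Coefficient of variation of normalized counts between mice of the same group (vertical axis, percent, pooled over both groups) for each HDAC gene (coloured by class) and the median of the 500 tested genes nearest to it in level (grey). *Hdac9* stands at 26.7% beside 7.15%, and *Hdac8* at 6.29% beside 16.9%.

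In class IIb, *Hdac6* (ENSMUSG00000031161, chromosome X, 7930120 to 7947889), which encodes the tubulin deacetylase, had 396.0, 449.7 and 451.0 normalized counts with vehicle and 380.6, 396.5 and 308.6 with Tributyrin. The groups overlapped by a narrow margin, since 1 Tributyrin mouse (396.5) lay just above the lowest vehicle mouse (396.0). The means were 432.2 ± 31.4 and 361.9 ± 46.9 (SD, n = 3). The log2 fold change was -0.25 (standard error 0.118), a fold of 0.84 with a 95% interval of 0.701 to 1.01, and the unadjusted p in edgeR's model across genes was 0.0567. With 1 mouse left out the log2 fold change ran from -0.32 (without tributyrin replicate 2) to -0.15 (without tributyrin replicate 3, the lowest mouse). It passed an unadjusted p of 0.05 without tributyrin replicate 2, without vehicle replicate 1, with library size as the only scaling and with no filter on low counts. *Hdac10* (ENSMUSG00000062906, chromosome 15, 89123307 to 89128700), the polyamine deacetylase, had 211.0, 205.5 and 214.9 normalized counts with vehicle and 245.9, 191.9 and 224.8 with Tributyrin. Its Tributyrin mice lay on both sides of the vehicle mice. The log2 fold change was 0.07 (standard error 0.122), and at -0.0022 it lay on the other side of 0 with library size as the only scaling. The 2 largest log2 fold changes in size among the 10 were those of *Hdac8* and *Hdac6*, both on chromosome X, in opposite directions. In all 6 libraries *Ddx3y*, a gene of the Y chromosome, was at 1802 to 2241 normalized counts. *Xist*, the RNA of the inactive X chromosome, was at no more than 6.24, so all 6 libraries read as male. The study used mice of both sexes. *Hdac11*, the class IV gene, had group means of 565.7 ± 24.7 and 564.5 ± 80.4 normalized counts (SD, n = 3).

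Genes around the enzymes were followed in 13 lists of 79 genes in all, of which 77 passed the filter on low counts. The lists too were chosen with earlier results of these data known. Besides partners, the lists held *Hdac11*, histone acetyltransferases, genes that HDAC inhibitors are known to raise, and fetal cardiac genes. None passed an FDR of 10% in the edgeR fit, and 33 were higher and 44 lower with Tributyrin. An unadjusted p under 0.05 was found for 3, beside 4.25% of all genes tested. These were the partner gene *Chd3* and the fetal cardiac genes *Nppb* and *Ankrd1*. The groups did not overlap in 7 of the 77, 4 higher and 3 lower, beside 8.91% of all genes tested. The 3 lower genes were *Nppb*, *Ankrd1* and the acetyltransferase gene *Kat2a*, none of them a partner. In the complexes of class I the median log2 fold change lay close to 0, at -0.04 for 5 NCoR and SMRT genes, 0.05 for 11 SIN3 genes, -0.03 for 9 NuRD genes, -0.06 for 4 CoREST genes and 0.03 for both RBBP histone chaperones. It was -0.13 for the 3 genes of the mitotic deacetylase complex MiDAC, where *Trerf1*, a transcription factor in that complex, was lowest at -0.45 (standard error 0.24). The highest member of MiDAC was *Elmsan1*, its scaffold gene, at -0.0022 (standard error 0.086). The highest and lowest of the other complexes without such a gene follow. *Tbl1x* was at 0.11 (standard error 0.067) and *Tbl1xr1*, its relative in the NCoR complex, at -0.07 (standard error 0.077). The growth inhibitor genes *Ing2* and *Ing1* of SIN3 were at 0.14 (standard error 0.184) and -0.10 (standard error 0.103). *Rbbp4* was at 0.10 (standard error 0.068) and *Rbbp7* at -0.04 (standard error 0.064), and in CoREST the lysine demethylase gene *Kdm1a* was at 0.06 (standard error 0.092) and the scaffold gene *Rcor3* at -0.10 (standard error 0.091). The 1 gene of these complexes under an unadjusted p of 0.05 was *Chd3*, a chromatin remodeller of NuRD. It had 657.9, 656.8 and 709.4 normalized counts with vehicle and 755.6, 806.8 and 728.4 with Tributyrin. All Tributyrin mice lay above all vehicle mice, as they also did for *Tbl1x*, *Rbbp4* and *Sin3b*, a SIN3 scaffold gene. For *Chd3* the log2 fold change was 0.18 (standard error 0.081) and the unadjusted p in edgeR's model across genes was 0.0489. *Ncor1*, the main scaffold of HDAC3, was at -0.03 (standard error 0.096).

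Around class IIa, none of the tested genes in the lists of MEF2 factors (3), 14-3-3 proteins (7) and kinases (12) had an unadjusted p under 0.05, beside 4.25% of all genes tested. The 3 tested MEF2 factors had a median log2 fold change of -0.06, from -0.10 (standard error 0.134) for *Mef2c* to 0.07 (standard error 0.088) for *Mef2a*. In per-length levels *Mef2d* stood at 77.0 TPM, *Mef2a* at 35.2 TPM and *Mef2c* at 9.71 TPM. The 7 genes of 14-3-3 proteins, which hold phosphorylated class IIa enzymes outside the nucleus, had a median of 0.02 and lay between -0.08 for *Sfn* and 0.08 for *Ywhab*. The 12 tested kinases had a median of -0.04. The largest increase was that of *Sik1*, a kinase of class IIa enzymes, at 0.23 (standard error 0.297), from 1079, 901.0 and 962.8 normalized counts with vehicle to 1894, 844.3 and 692.9 with Tributyrin, where 1 mouse sets the mean. The largest decrease was that of *Camk2b*, at -0.16 (standard error 0.103). The 10 histone acetyltransferases, which act against HDACs, had a median of 0.0080, from -0.11 (standard error 0.085) for *Kat2a* to 0.07 (standard error 0.086) for *Hat1*.

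Transcripts that HDAC inhibitors are known to raise in cultured cells did not stand apart. *Cdkn1a*, the cell cycle inhibitor p21, had 1239, 1024 and 644.8 normalized counts with vehicle and 821.0, 1190 and 1126 with Tributyrin (log2 fold change 0.11, standard error 0.207). *H1f0*, the replacement linker histone, was at 2270, 2347 and 2199 with vehicle and 2341, 2300 and 2197 with Tributyrin, a log2 fold change of 0.01 (standard error 0.068). The actin-binding gelsolin gene *Gsn* was at 0.02 (standard error 0.092) and *Txnip*, the thioredoxin-interacting protein gene, at -0.07 (standard error 0.275). The groups overlapped in all 4 genes, and among all genes tested only 8.91% had groups without overlap. The standard errors of *Cdkn1a* and *Txnip* leave room for changes in either direction. Whether the enzymes were inhibited in these hearts was not tested. *Ppm1k*, the phosphatase transcript that the study follows, had a log2 fold change of 0.29 (standard error 0.075) in the same fit. It had 3768, 3649 and 3313 normalized counts with vehicle and 4527, 4432 and 4151 with Tributyrin. All its Tributyrin mice lay above all its vehicle mice, as for 4.26% of all genes tested. Its unadjusted p was 0.00296 by edgeR and its adjusted p 0.999. It thus failed the correction here, as did all 14133 genes tested. The paper, which used DESeq2, reports its increase as significant after FDR adjustment.

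Fetal cardiac genes, some of which MEF2 and class IIa enzymes are known to control, had log2 fold changes below 0 in 6 of 6 cases, with a median of -0.59. The 4 atrial markers were lower beside them, with a median of -2.05, and were highest in 2 vehicle libraries. Leaving out those 2 libraries keeps only 1 vehicle mouse, replicate 3. In that fit 5 of the 6 fetal cardiac genes were below 0, with a median of -0.74. *Nppa* was then at -1.13, *Myh7* at -0.80, *Nppb* at -0.80, *Ankrd1* at -0.67, *Acta1* at -0.39 and *Rcan1* at 0.04. The mouse kept had the highest *Nppa* (1046 normalized counts) and *Myh7* (5347) of the vehicle mice. The part of atrial tissue in these values was not tested. *Nppb*, the gene of brain natriuretic peptide, had 1776, 2317 and 1665 normalized counts with vehicle and 431.1, 1158 and 1293 with Tributyrin (log2 fold change -1.004, standard error 0.309). *Ankrd1*, a stretch-responsive muscle gene, had 18950, 28440 and 24160 normalized counts with vehicle and 11570, 16540 and 17460 with Tributyrin (log2 fold change -0.65, standard error 0.167). These were the 2 of 6 under an unadjusted p of 0.05 and the 2 of 6 whose groups did not overlap, beside 2.28% and 4.65% of all genes tested for that direction, and 0 of the 6 were called at 10%. *Acta1* was at -1.20 (standard error 0.55), *Nppa* at -0.53 (standard error 0.333), *Myh7* at -0.36 (standard error 0.227) and *Rcan1* at -0.07 (standard error 0.099), each with overlapping groups. Leaving out vehicle replicate 2 turned *Rcan1* to 0.04 and took *Acta1* to -0.41, and without vehicle replicate 3 *Nppa* was at -0.12 and *Myh7* at -0.08.

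The tissue and the libraries were checked with marker lists. Ventricular *Myl2* stood at 7210 TPM and *Myh6* at 6607 TPM. Atrial markers (*Sln*, *Myl7*, *Myl4* and *Mybphl*) summed to 4232, 4055 and 367.7 normalized counts with vehicle and to 519.9, 1271 and 488.7 with Tributyrin. All 4 genes were lower with Tributyrin at an unadjusted p under 0.05, beside 2.28% of all genes tested for that direction. Their groups overlapped, since vehicle replicate 3 was the lowest of all, and 2 vehicle libraries stood above the rest. Without those 2 libraries, which leaves 1 vehicle mouse assumed to vary like the others, *Hdac8* was at 0.38 and no longer under an unadjusted p of 0.05. In that fit 0 HDAC genes passed an FDR of 10%, 6 of 10 were higher, and the 1 HDAC gene under an unadjusted p of 0.05 was *Hdac7*, at -0.34. Endothelial markers summed to 15300 to 15680 with vehicle and 14890 to 16280 with Tributyrin, and fibroblast markers to 17120 to 18110 and 15680 to 18360, with *Col1a1* and *Lum* lower at an unadjusted p under 0.05. Smooth muscle and pericyte markers summed to 17960 to 19440 and 18500 to 22200, with *Myh11* and *Cnn1* higher at an unadjusted p under 0.05. Among cardiomyocyte markers, *Tnnt2* and *Pln* were higher and *Actc1* lower at an unadjusted p under 0.05. Of all genes tested, 1.97% were higher and 2.28% lower at that threshold. Macrophage markers summed to 2691 to 3360 and 2540 to 3319, erythroid markers to 12910 to 18290 and 10040 to 24730, Schwann cell markers to 183.9 to 201.6 and 199.6 to 213.2, and adipocyte markers to at most 64.0 normalized counts in any library. Mitochondrial transcripts took 23.6% to 26.5% of the counts with vehicle and 25.9% to 28.8% with Tributyrin. The part of these markers and of the mitochondrial share in the values of the HDAC genes was not tested.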

How the data were processed

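RNA from 3 WD + Tributyrin and 3 WD + Vehicle hearts was sequenced as stranded mRNA libraries. The authors deposited whole-number counts per gene, without normalization and with rRNA reads already taken out. Their processing notes name the mm10 build, cutadapt 1.13, STAR, HTSeq 0.6.1p1 and DESeq2 1.14.1. Which gene annotation and which strand option they counted with is not stated. Gene models came from GENCODE M21 (GRCm38), and 54165 of 54232 identifiers matched.

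Groups were taken from the sample labels. They do not say how single mice were housed or processed, so p-values measure the spread between these samples. No 2 libraries agreed within sampling noise (chi-square per degree of freedom 7.4 to 31.84). Counts were compared in R 4.3.3 with edgeR 4.0.16 (TMM scaling, filterByExpr with minimum count 10 and minimum total 15, quasi-likelihood test, no covariate, Benjamini-Hochberg adjustment over 14133 genes, FDR 10% and 5%), and with DESeq2 1.42.0 and limma 3.58.1 as alternatives. Normalized counts use DESeq2 size factors. Intervals of fold changes use the standard error and total degrees of freedom of the edgeR fit. TPM used merged exonic length, with mitochondrial transcripts included (45.6% to 51.1% of the TPM), and served to compare genes and the shares of the classes. Group differences were tested on counts alone. Other scalings, filters, lengths, a replicate block and leaving out each mouse were tried. The steps were tested on simulated data.

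Named were all HDAC genes, *Hdac11*, *Ppm1k*, the pseudogene *Gm10093* and, of the genes that overlap a member, *Slc48a1* and *Gm26720* alone. In each of the 13 lists, named were the genes with an unadjusted p under 0.05 or otherwise the highest and the lowest. Beyond this, *Ncor1*, *Sin3b*, *Mef2d*, *H1f0*, *Gsn*, the remaining fetal cardiac genes and single marker genes were named after their values were seen. Members and lists were chosen with earlier results of these data known. The sequence of *Hdac3* is not reported here.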

Additional observations from a re-analysis of the deposited data

How the results depend on the processing

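No alternative called an HDAC gene at an FDR of 10%. The number of all genes called at 10% was 0, but 167 with no filter on low counts, 11 with DESeq2 and 2 with the replicate block, and leaving out single mice gave 0, when vehicle replicate 2 was dropped, to 3, when tributyrin replicate 3 was dropped. Genes with an unadjusted p under 0.05 numbered 600, against 1178 without the filter, 367 with a mean CPM of at least 5 (a filter that removes *Hdac8*) and 396 in a setting added after the markers were seen, which leaves out both vehicle mice with the most atrial transcripts. With 1 mouse left out there were 389 (vehicle replicate 3 dropped) to 1360 (tributyrin replicate 2 dropped). HDAC genes with an unadjusted p under 0.05 numbered 1 with the settings reported, 2 (*Hdac8* and *Hdac6*) without the filter, 0 with a mean CPM of at least 5, 0 with DESeq2, and 0 to 2 with 1 mouse left out (0 without vehicle replicate 2, tributyrin replicate 1 or tributyrin replicate 3, and 2 without tributyrin replicate 2). The single gene was *Hdac6* in place of *Hdac8* with library size alone and without vehicle replicate 1, and it was *Hdac7* in the added setting. Genes higher with Tributyrin ran from 2 (without tributyrin replicate 1) to 6 of 10 with 1 mouse left out.

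The median log2 fold change of the 10 genes was 0.0348 in the added setting and ran from -0.0403 to 0.0328 with 1 mouse left out, being above 0 without vehicle replicate 1, vehicle replicate 3, tributyrin replicate 2 or tributyrin replicate 3. Changes of sign among single genes were *Hdac10* at -0.00219 with library size alone, *Hdac2* at 0.0027 without the filter, and *Hdac2* at 0.0386 and *Hdac3* at 0.0338 in the added setting. With 1 mouse left out, *Hdac1* ran from -0.0767 to 0.0043, *Hdac2* from -0.0481 to 0.0521, *Hdac3* from -0.0575 to 0.0459, *Hdac4* from -0.105 to 0.0538, *Hdac7* from -0.171 to 0.0384, *Hdac9* from -0.107 to 0.3 and *Hdac10* from -0.0105 to 0.164. *Hdac5*, *Hdac6* and *Hdac8* kept their sign in every setting that tested them, *Hdac8* between 0.365 and 0.494. Library size alone moved the median of all genes tested to -0.0736. With the longest transcript as length, the summed level was 44.5% class I, 48.2% class IIa and 7.28% class IIb (47.8%, 43.3% and 9% with merged exons), and 6 of 10 genes changed rank. Ranks changed for 0 to 2 genes with 1 mouse left out (2 without tributyrin replicate 1). The fetal cardiac genes were run through all settings after their values were seen. Those under an unadjusted p of 0.05 numbered 2 of 6, 5 without the filter on low counts, 4 with the replicate block, and 2 to 4 with 1 mouse left out (4 without tributyrin replicate 3). At an FDR of 10%, 5 of the 6 were called without the filter and *Ankrd1* with the block. Without the filter the fold changes hardly moved while the p-values fell far. *Acta1*, whose groups overlap, went from -1.20 (unadjusted p = 0.0525 from edgeR) to -1.21 (unadjusted p = 1.35e-45 from edgeR). The calls without the filter thus rest on the setting and not on larger differences. *Rcan1* was at 0.0379 in the added setting and ran from -0.135 to 0.0384 with 1 mouse left out. For these changes the cause was not tested.

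A fit with the replicate numbers as a block was made although same-numbered mice deviated together with correlations of only 0.2, 0.025 and 0.02, which does not show a pairing. It gave 0 HDAC genes at 10%, and *Hdac8* was at 0.434 (unadjusted p = 0.0376 from edgeR). Depth limits *Hdac8* most, with 55 to 97 counts per library.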
